A study of Mus musculus with 7 samples.

Results

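Blood and lymphatic endothelial genes were followed in the duodenum of mice given T09 or vehicle. They are 10 genes of known endothelial use, Pecam1, Cdh5, Kdr, Tek, Vwf, Lyve1, Prox1, Flt4, Eng and Esam. They were taken by their gene name from a table of 47069 genes, and each name matched 1 row. The T09 group was 3 male mice given T0901317, called T09, at 50 mg/kg/day. It activates the liver X receptors (LXR), which respond to oxysterols as nuclear receptors. The vehicle group was 4 male mice given 0.5% carboxymethylcellulose. Mice of both groups were 8 to 12 weeks old, and their strain is written C57BL/6 for the samples and C57BL/6J for the series. How long they were treated is not known here. RNA of the gut, duodenum, was sequenced with 1 library per mouse, so that each value is a mean over all cells of the sample.

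Endothelial cells line blood and lymphatic vessels. In the small intestine, blood capillaries beneath the villus epithelium take up sugars and amino acids, while the central lymphatic vessel of each villus, the lacteal, takes up chylomicrons. Vascular endothelial growth factors (VEGF) act through the receptors encoded by Kdr and Flt4, and angiopoietins through the receptor encoded by Tek. Prox1 encodes the transcription factor that sets lymphatic identity. Some of the genes are also used outside endothelium: Pecam1 by platelets and leukocytes, Vwf by megakaryocytes, Lyve1 by some macrophages and Prox1 by enteroendocrine cells.

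Library totals lay between 15395535 and 20494485 counts. The LXR target Srebf1, which encodes the lipogenic factor SREBP-1, had 1134, 1174 and 1271 CPM (CPM being the count scaled to the TMM-adjusted library size) in the T09 libraries, against 116 to 179 CPM in the vehicle libraries, so the labels and the agonist's index gene went together. Epithelial and brush border genes took 4.38% to 4.52% of counts with T09 and 4.62% to 5.01% with vehicle. All 10 endothelial genes were detected in every library, with 8 to 270 counts each, and together they took 0.00656%, 0.00156% and 0.00146% of counts in T09 replicates 1 to 3. In vehicle replicates 1 to 4 the summed share was 0.00294%, 0.00239%, 0.00233% and 0.00283%. T09 replicate 1 thus stood apart from all other libraries, at 4.35 times the mean of the other T09 libraries and 2.50 times the vehicle mean. The comparisons of the 10 genes are given with it and without it.

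None of the 10 endothelial genes passed the test between T09 and vehicle. By edgeR's quasi-likelihood test over 14250 genes with Benjamini-Hochberg adjustment, none of the 10 was called at an adjusted p under 0.05, against 4.31% of all genes tested (1.44% higher and 2.87% lower). None had an unadjusted p under 0.05, against 7.26% of all genes higher and 10.6% lower at that threshold. DESeq2 and limma-voom also called none, and DESeq2 gave 1, Kdr, an unadjusted p under 0.05. The 10 log2 fold changes had a median of 0.22, with 7 above 0 and 3 below, beside a median of 0.02 over all genes tested. With T09 replicate 1 left out, all 10 lay below 0, the median was -0.83 (0.00 over all genes tested), and again none was called, against 5.64% of the 14525 genes then tested (2.04% higher and 3.6% lower). In that smaller comparison 4 genes were lower at an unadjusted p under 0.05, Cdh5, Tek, Lyve1 and Esam, against 13.1% of all genes, and none was higher, against 9.34%. In a bulk sample, a different number of endothelial cells and a different amount of RNA per cell cannot be told apart.

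**Figure D1:**
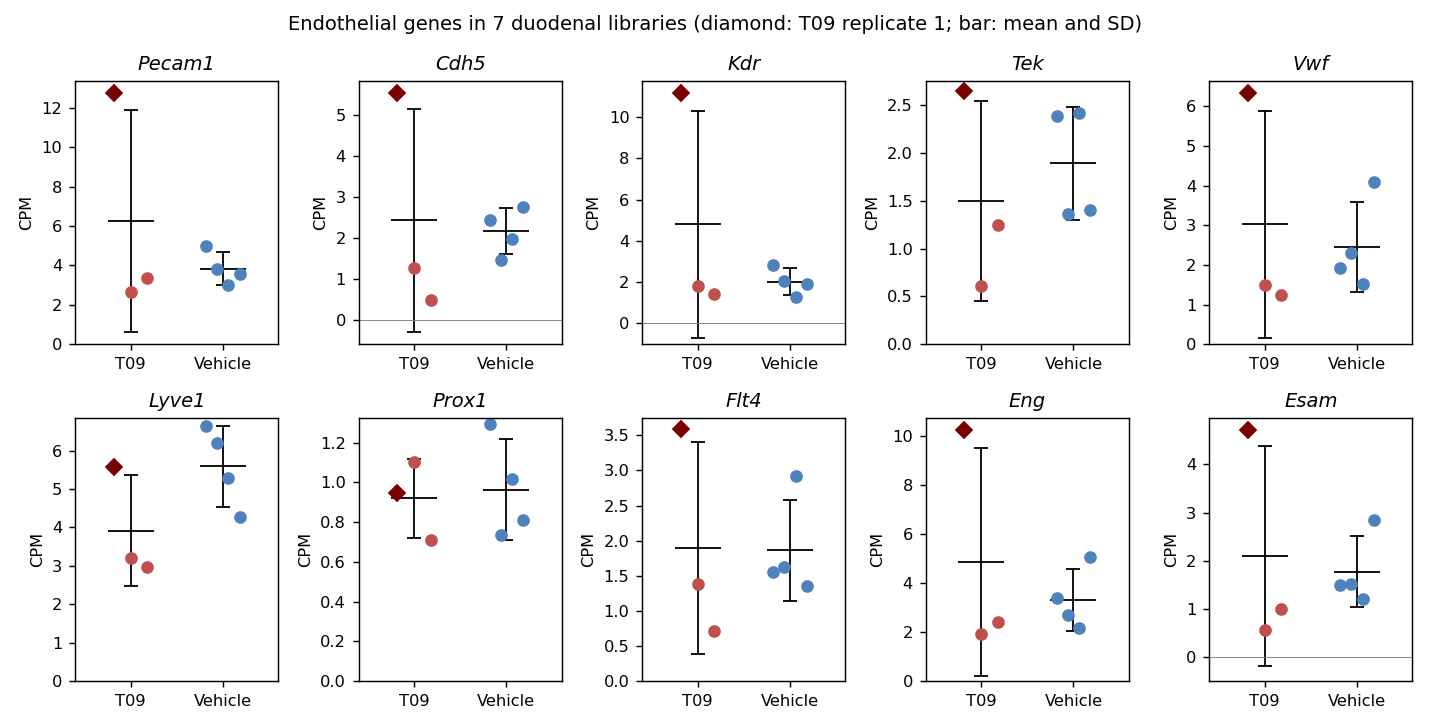
CPM of the 10 endothelial genes in each library, T09 on the left and vehicle on the right, on linear axes that differ between panels. Points are libraries, the diamond is T09 replicate 1, and bars give the group mean and SD (n = 3 and n = 4). The diamond is the highest of the 7 points for 8 genes, Lyve1 and Prox1 being the others.

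Of the junction and adhesion genes, Pecam1 encodes an adhesion molecule at contacts between endothelial cells. It had 12.8, 2.65 and 3.37 CPM in T09 replicates 1 to 3, against 4.98, 3.83, 2.99 and 3.56 CPM in vehicle replicates 1 to 4. T09 replicate 1 was above every vehicle library and T09 replicate 2 was below every one. T09 replicate 3 lay among them, so the groups overlapped. The log2 fold change was 0.71 (edgeR adjusted p 0.512, SE 0.49) with all libraries and -0.35 (edgeR adjusted p 0.522, SE 0.28) without T09 replicate 1. Pecam1 is ENSMUSG00000020717, on the minus strand of chromosome 11, 106654217 to 106750628. Cdh5, on chromosome 8, encodes VE-cadherin, the adherens junction cadherin of endothelium. Its level was 5.53, 1.27 and 0.473 CPM with T09 and 2.44, 1.47, 1.97 and 2.75 CPM with vehicle. The lowest and the highest of its 7 values were both T09 libraries. The log2 fold change was 0.18 (edgeR adjusted p 0.919, SE 0.65), or -1.29 (edgeR adjusted p 0.132, SE 0.46) without T09 replicate 1. Esam, on chromosome 9, encodes an adhesion molecule of endothelial tight junctions. It had 4.72, 0.552 and 1.01 CPM with T09, against 1.504, 1.52, 1.21 and 2.86 CPM with vehicle. T09 replicates 2 and 3 were below every vehicle library and T09 replicate 1 was above every one. Its log2 fold change was 0.25 (edgeR adjusted p 0.882, SE 0.64), or -1.19 (edgeR adjusted p 0.176, SE 0.47) without T09 replicate 1.

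Of the receptors, Kdr encodes VEGF receptor 2, the main receptor for VEGF-A on blood endothelium. Kdr had 11.2, 1.82 and 1.42 CPM in the T09 libraries, against 2.85, 2.05, 1.27 and 1.89 CPM in the vehicle libraries. T09 replicate 1 held 236 counts of it and no other library more than 55, while T09 replicates 2 and 3 fell among the vehicle values. Kdr had the largest log2 fold change of the 10 genes, 1.25 (edgeR adjusted p 0.363, SE 0.65), and the value turned to -0.31 (edgeR adjusted p 0.676, SE 0.37) without T09 replicate 1. It is ENSMUSG00000062960, on the minus strand of chromosome 5, 75932827 to 75978458. Flt4, on chromosome 11, encodes VEGF receptor 3, which binds VEGF-C and VEGF-D on lymphatic endothelium. It had 3.59, 1.38 and 0.710 CPM with T09 and 1.56, 1.63, 2.93 and 1.35 CPM with vehicle, a log2 fold change of 0.04 (edgeR adjusted p 0.980, SE 0.51). Tek, on chromosome 4, encodes the angiopoietin receptor TIE2. Its values were 2.65, 0.607 and 1.24 CPM with T09, against 2.39, 1.36, 2.42 and 1.40 CPM with vehicle, and its log2 fold change was -0.32 (edgeR adjusted p 0.786, SE 0.47). Here T09 replicate 1 was only slightly above the 2 higher vehicle libraries, and the other T09 libraries were below all of them. Eng, on chromosome 2, encodes endoglin, a co-receptor for ligands of the TGF-beta and BMP family. Eng had 10.3, 1.93 and 2.43 CPM with T09 and 3.37, 2.68, 2.16 and 5.07 CPM with vehicle, a log2 fold change of 0.56 (edgeR adjusted p 0.658, SE 0.55). For Flt4, Tek and Eng the log2 fold changes without T09 replicate 1 were -0.81 (SE 0.45), -1.03 (SE 0.44) and -0.61 (SE 0.37), with edgeR adjusted p of 0.326, 0.209 and 0.376.

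Vwf, on chromosome 6, encodes von Willebrand factor, which endothelial cells store and release and to which platelets bind. It had 6.33, 1.49 and 1.24 CPM with T09 and 1.92, 2.31, 1.53 and 4.10 CPM with vehicle. T09 replicate 1 was again the highest library, and vehicle replicate 4 was the next. The log2 fold change was 0.30 (edgeR adjusted p 0.836, SE 0.57), and -0.85 (edgeR adjusted p 0.287, SE 0.43) without T09 replicate 1. Of 8 platelet and megakaryocyte genes 3 were tested and none was called, and 2, Ppbp and Treml1, had no count in any library. Their summed share was 0.00324% in T09 replicate 1, 0.00558% and 0.00892% in the other T09 libraries, and 0.00230% to 0.00663% with vehicle. Of the 3 tested, 1 was highest in T09 replicate 1. The part of platelets and megakaryocytes in the Vwf values was not tested.

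Among the lymphatic genes, Lyve1 encodes a hyaluronan receptor. Lyve1 (ENSMUSG00000030787, on the minus strand of chromosome 7, 110850607 to 110862953) had 5.58, 3.20 and 2.96 CPM with T09, against 6.64, 6.19, 5.28 and 4.26 CPM with vehicle. T09 replicate 1 lay among the vehicle libraries and the other T09 libraries lay below all of them. The log2 fold change was -0.51 (edgeR adjusted p 0.383, SE 0.28) with all libraries and -0.86 (edgeR adjusted p 0.0863, SE 0.26) without T09 replicate 1, the smallest adjusted p of the 10 genes in that comparison. Over the alternatives its adjusted p ranged from 0.0660 to 1.00. Prox1, on chromosome 1, had 0.945, 1.10 and 0.710 CPM with T09 and 1.30, 0.735, 1.02 and 0.808 CPM with vehicle. The Prox1 groups overlapped throughout, T09 replicate 1 lay in their middle, and the log2 fold change was -0.06 (edgeR adjusted p 0.949, SE 0.34) with it and -0.08 (edgeR adjusted p 0.941, SE 0.42) without it. With 12 to 25 counts per library, Prox1 had the widest counting error of the 10, a coefficient of variation of 23.9% from counting alone beside 26.1% seen among the vehicle libraries.

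The promoters of 5 genes, Kdr, Tek, Prox1, Flt4 and Eng, are held in the RefSeq table on GRCm38.p6. Of them, 3 are shown because their genes differ most in how T09 replicate 1 stood: far above the vehicle libraries for Kdr and Eng, and among them for Prox1. Each run is the 250 bases before the RefSeq start, on the strand of the gene, with AGGAAG or its reverse complement CTTCCT in capitals. AGGAAG is a core that ETS factors, many of them active in endothelium, are known to bind. The positions are chr5:75978456-75978705, minus strand, chr2:32646345-32646594, plus strand and chr1:190170828-190171077, minus strand.
Kdr: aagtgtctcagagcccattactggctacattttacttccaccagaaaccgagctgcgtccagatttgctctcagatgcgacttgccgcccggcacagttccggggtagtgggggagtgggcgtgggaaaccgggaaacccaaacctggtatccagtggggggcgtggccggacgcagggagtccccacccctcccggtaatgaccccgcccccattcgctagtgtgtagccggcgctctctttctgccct
Eng: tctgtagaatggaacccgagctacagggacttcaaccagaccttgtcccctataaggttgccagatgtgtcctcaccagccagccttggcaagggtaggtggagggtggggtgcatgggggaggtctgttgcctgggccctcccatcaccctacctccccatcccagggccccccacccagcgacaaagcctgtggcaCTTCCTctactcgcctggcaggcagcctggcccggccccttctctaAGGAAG
Prox1: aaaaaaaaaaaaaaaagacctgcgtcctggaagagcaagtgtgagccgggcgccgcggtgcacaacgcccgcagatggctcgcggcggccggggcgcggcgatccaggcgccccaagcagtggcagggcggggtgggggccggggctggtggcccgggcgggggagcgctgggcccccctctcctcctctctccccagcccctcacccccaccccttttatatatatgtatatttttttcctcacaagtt
AGGAAG was found on either strand in 1 of the 6 windows of these 5 genes, that of Eng, with 2 matches, and in 29.5% of the 32851 windows of the same length in the table. The LXR type of direct repeat, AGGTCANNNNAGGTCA, was searched on both strands and found in none of the 6 windows and in 5 of the 32851. The matches are descriptions of these letters in these windows. The RefSeq start of Eng is the start listed in the gene table, that of Kdr is 3 bases from it and that of Prox1 113 bases.

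**Figure D2:**
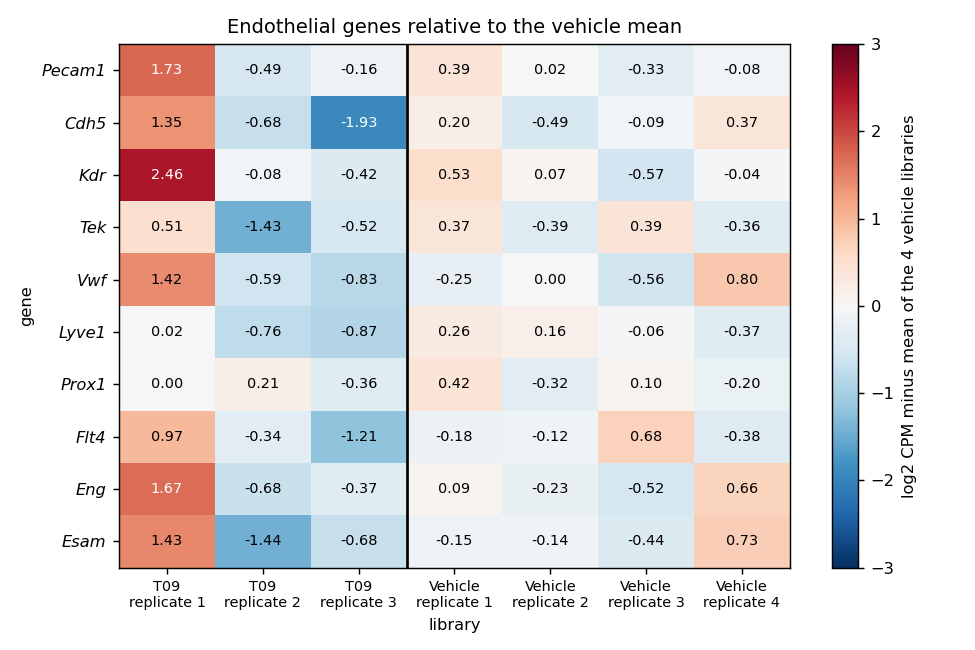
Log2 CPM of each endothelial gene in each library minus the mean of the 4 vehicle libraries, with 3 T09 columns left of the line and 4 vehicle columns right of it. Red is above the vehicle mean and blue below. Values in T09 replicate 1 reach 2.46 (Kdr), while Lyve1 and Prox1 are near 0 there.

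The weight of T09 replicate 1 was large for these genes. It was the highest of the 7 libraries for 8 of the 10, whereas it was the highest for 13.5% of all genes tested. The median ratio of its CPM to the mean of the other T09 libraries was 4.43 over the 10 genes, ranging from 1.04 for Prox1 and 1.81 for Lyve1 to 6.88 for Kdr, beside 0.98 over all genes tested. A ratio above 2 was seen for 8 of the 10 genes and for 7.28% of all genes tested. On the log2 scale the mean of the 10 genes was 1.15 above the vehicle mean in T09 replicate 1, and 0.63 and 0.73 below it in the other T09 libraries (-0.63 and -0.73). The vehicle libraries lay between -0.14 and 0.17. When limma-voom estimated a weight for each library from all genes, T09 replicate 1 had the lowest of the 7, 0.606, and T09 replicate 2 the highest, 2.77. Vehicle replicate 1 (0.681) and T09 replicate 3 (0.709) were close to the lowest. Between T09 replicates 2 and 3 and the vehicle libraries, the groups did not overlap for 5 genes, Cdh5, Tek, Vwf, Lyve1 and Esam, all lower with T09, against 17.3% of all genes tested (32.7% in either direction). With T09 replicate 1 included, none of the 10 had groups that did not overlap, against 16.8% of all genes tested (9.69% lower).

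**Figure D3:**
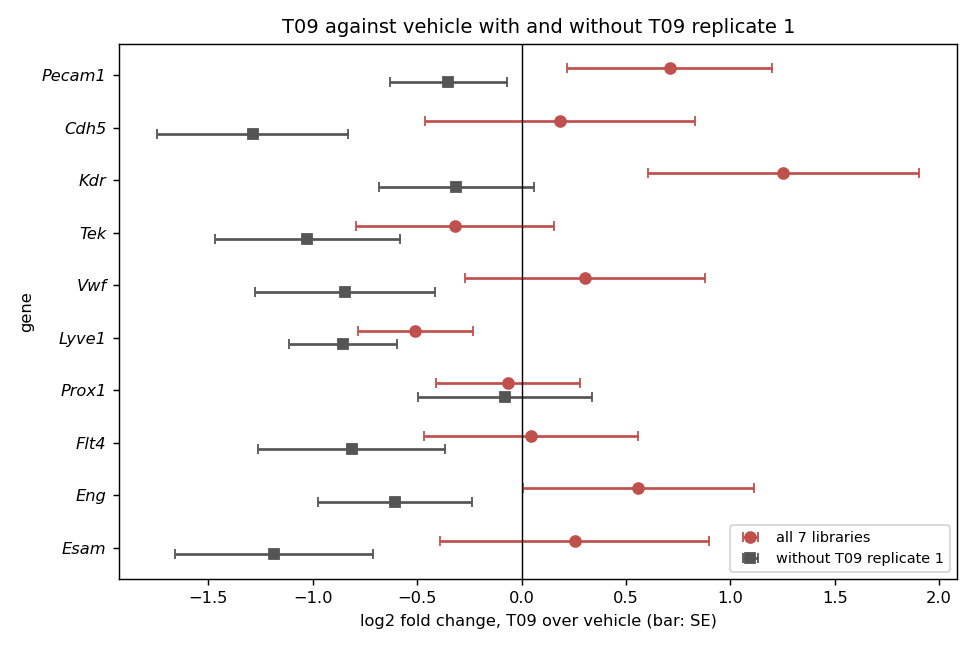
Log2 fold change of T09 over vehicle with its SE for each endothelial gene, with all 7 libraries (circles) and without T09 replicate 1 (squares). Circles lie on both sides of 0, from -0.51 to 1.25, and every square lies below 0, from -1.29 to -0.08.

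The spread was wide within the T09 group. The SD among T09 libraries was larger than that among vehicle libraries for 9 of the 10 genes, Prox1 being the other. For Pecam1 the mean was 6.26 ± 5.64 CPM with T09 (SD, n = 3) and 3.84 ± 0.837 CPM with vehicle (SD, n = 4). For Kdr it was 4.80 ± 5.51 CPM with T09 (SD, n = 3) and 2.01 ± 0.651 CPM with vehicle (SD, n = 4). Among vehicle libraries the coefficient of variation ran from 18.9% (Lyve1) to 46.1% (Vwf) and was above that from counting alone for all 10 genes. Within the vehicle group, replicate 4 held the most Eng (5.07 CPM), Esam (2.86 CPM), Vwf (4.10 CPM) and Cdh5 (2.75 CPM). It also held the most adipocyte counts (0.0438%, against 0.0170% to 0.0234% in the other vehicle libraries). The same library had the highest vehicle shares of smooth muscle (0.253%), pericyte and mural (0.0185%) and enteric neuron and glia genes (0.00306%). Fibroblast and matrix (0.0234%) and mesothelial (0.00265%) shares were also highest there. B and plasma cell (0.00823%) and T and NK cell (0.00363%) shares were the lowest there. The part of these cell types in the endothelial values was not tested.

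Levels were compared between genes on the deposited FPKM scale, which is scaled by length. In the vehicle libraries the order by mean level was Lyve1 (2.17 ± 0.408 FPKM), Esam (2.08 ± 0.861), Eng (1.73 ± 0.657), Pecam1 (1.57 ± 0.341), Vwf (0.936 ± 0.429), Tek (0.559 ± 0.177), Cdh5 (0.548 ± 0.142), Kdr (0.466 ± 0.150), Flt4 (0.384 ± 0.150) and Prox1 (0.205 ± 0.0541), each with SD and n = 4. Of the 9 pairs of neighbours in this order, 8 had overlapping vehicle values, and only Flt4 and Prox1 did not. T09 replicate 1 had another order, with Esam (5.66 FPKM), Eng (5.45 FPKM) and Pecam1 (5.33 FPKM) at the top, Kdr (2.63 FPKM) in place 4 and Lyve1 (2.21 FPKM) in place 6. Prox1 was in place 10 in both.

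**Figure D4:**
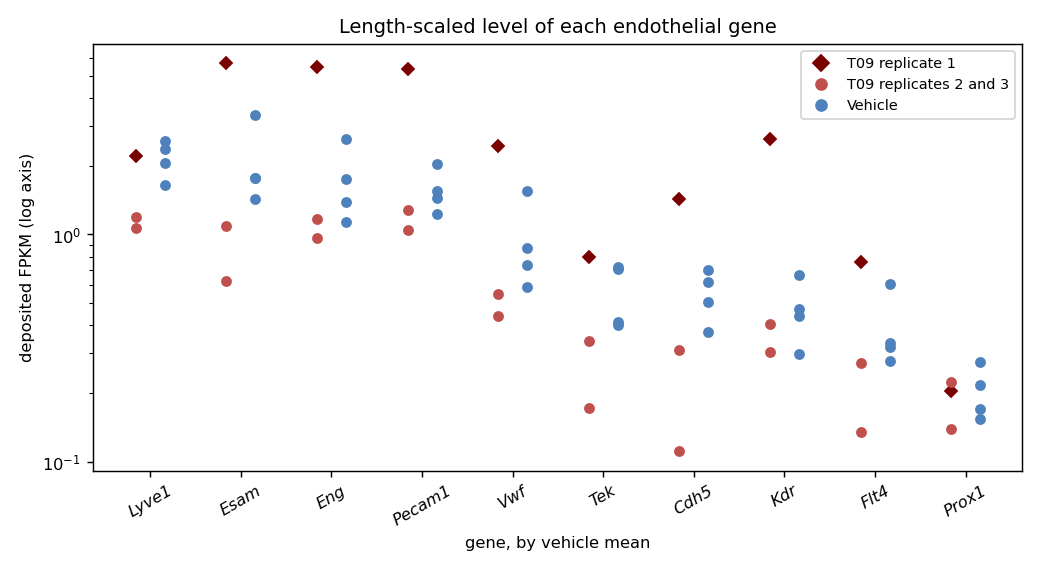
Deposited FPKM of each endothelial gene by library on a log axis, ordered by the vehicle mean, with T09 left of vehicle at each gene. T09 replicate 1 (diamond) is above the other libraries for 8 genes, and at Lyve1 and Prox1 it is within the vehicle range.

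Counts of each gene were also set against those of Pecam1 in the same library, so that a difference shared by all of them drops out. Lyve1 stood at 0.437 counts per count of Pecam1 in T09 replicate 1, 1.21 and 0.877 in the other T09 libraries, and 1.20 to 1.77 in the vehicle libraries. For Prox1 the ratio was 0.0741 in T09 replicate 1, 0.417 and 0.211 in the other T09 libraries, and 0.192 to 0.340 with vehicle. Kdr stood at 0.874, 0.688 and 0.421 with T09 and at 0.426 to 0.573 with vehicle. Eng held a like ratio in 6 of the 7 libraries, 0.804, 0.729 and 0.719 with T09 and 0.677 to 0.723 in vehicle replicates 1 to 3, with 1.42 in vehicle replicate 4. The 10 genes therefore did not stand in fixed proportion, and Lyve1, Prox1 and Tek (0.207, against 0.229 to 0.809 in the other libraries) had their lowest ratios in T09 replicate 1.

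Of 26 other pan-endothelial genes 20 were tested, and none was called with or without T09 replicate 1. Their median log2 fold change was 0.63, or -0.51 without that library, and 18 of the 20 were highest in it. Plvap, which encodes the protein of fenestral diaphragms in capillaries, had 59.3, 5.14 and 6.57 CPM with T09, against 10.9, 10.5, 4.77 and 10.5 CPM with vehicle. Its log2 fold change was 1.37 (edgeR adjusted p 0.383, SE 0.74) with all libraries and -0.65 (edgeR adjusted p 0.278, SE 0.33) without T09 replicate 1. Tie1, an orphan receptor that partners TIE2, had 7.56, 1.66 and 0.769 CPM with T09 and 2.16 to 3.34 CPM with vehicle. The ETS factor gene Fli1 had 5.20, 1.44 and 2.37 CPM with T09, against 0.808 to 3.27 CPM with vehicle. The list as a whole took 0.0130% of counts in T09 replicate 1, 0.00186% and 0.00229% in the other T09 libraries and 0.00250% to 0.00367% with vehicle.

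Of 9 other lymphatic genes 7 were tested and 1 was lower, Nrp2, a neuropilin that serves as co-receptor for VEGF-C and is used by other cells too. Nrp2 had 6.24, 4.92 and 3.97 CPM with T09 and 13.0, 10.7, 11.9 and 14.9 CPM with vehicle, groups that did not overlap. Its log2 fold change was -1.32 (edgeR adjusted p 0.00762, SE 0.20), and -1.50 without T09 replicate 1. The integrin gene Itga9, which serves lymphatic valves and smooth muscle, had a log2 fold change of -1.05 (edgeR adjusted p 0.102, SE 0.31) and was called without T09 replicate 1 (log2 fold change -1.50, edgeR adjusted p 0.0147). Mmrn1, a multimerin gene of lymphatic endothelium and platelets, had 2.98, 1.38 and 1.184 CPM with T09 and 1.51 to 3.88 CPM with vehicle and was not called (edgeR adjusted p 0.612). The summed share of the list was 0.00297% in T09 replicate 1, 0.00139% and 0.00102% in the other T09 libraries, and 0.00264% to 0.00352% with vehicle.

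In a list of ligands of the receptors, their relatives and their processing genes, 9 of 14 were tested and 1 was lower. It was Angptl1, an angiopoietin-like gene that is not a known ligand of these receptors. Angptl1 had 0.378, 0.607 and 0.947 CPM with T09 against 1.67 to 2.52 CPM with vehicle (log2 fold change -1.68, edgeR adjusted p 0.0359, SE 0.37). Its call was lost without T09 replicate 1 (edgeR adjusted p 0.0600), and no gene of this list was called without T09 replicate 2 or without any 1 of the 4 vehicle libraries either. Vegfa, the ligand of the Kdr product, had 146, 229 and 207 CPM with T09 and 186 to 202 CPM with vehicle, and its log2 fold change was 0.00 (SE 0.14). Vegfb, a ligand of the FLT1 receptor, had 5.76, 5.25 and 6.33 CPM with T09, against 7.35 to 9.97 CPM with vehicle, which did not overlap but was not called (edgeR adjusted p 0.147). Gdf2 and Bmp10, whose products bind the endoglin complex, had no count in any library. Of 15 co-receptors and signalling partners all were tested and Nrp2 was the only one called with all libraries, while Ctnnb1 (log2 fold change -0.12, edgeR adjusted p 0.697) and Jup (log2 fold change -0.22, edgeR adjusted p 0.294), catenins that bind cadherins in epithelium as well, were not. Without T09 replicate 1 a further one was called lower, the TGF-beta receptor gene Tgfbr2, named after its values were seen. Tgfbr2 had 28.2, 14.4 and 10.6 CPM with T09 and 20.5 to 23.1 CPM with vehicle, a log2 fold change of -0.30 (edgeR adjusted p 0.637) with all libraries and -0.80 (edgeR adjusted p 0.0243) without T09 replicate 1. Of 15 arterial, venous and Notch genes 13 were tested and 1 was lower, Unc5b, a netrin receptor gene, at 110, 94.5 and 86.5 CPM with T09 and 143 to 198 CPM with vehicle (log2 fold change -0.78, edgeR adjusted p 0.0131, SE 0.13). The Unc5b call was lost, with 0 of the list called, without T09 replicate 2 and without T09 replicate 3. Efnb2 and Ephb4, the arterial ephrin and its venous receptor, had log2 fold changes of 0.23 (SE 0.19) and -0.01 (SE 0.15). Both are used in epithelium too, and the part of cells outside vessels in the Unc5b, Efnb2 and Ephb4 values was not tested. None of 8 tested adhesion and junction genes of 12 was called. The most abundant of them were F11r, Tjp1 and Cd99l2 (log2 fold changes -0.23, 0.00 and -0.63), and the first 2 of these also belong to epithelial tight junctions.

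Pericytes and other mural cells sit on the outside of these vessels. Some of their marker genes are used by smooth muscle of the gut wall too, and its part in these values was not tested. Of 7 pericyte and mural genes, all tested, 3 were lower and none higher, and their median log2 fold change was -1.17. Rgs5, a regulator of G-protein signalling used as a pericyte marker, had 14.9, 29.0 and 31.0 CPM with T09, against 114, 93.2, 116 and 135 CPM with vehicle (log2 fold change -2.20, edgeR adjusted p 0.00278, SE 0.24). Abcc9, a potassium channel subunit gene, had 1.28, 4.64 and 3.08 CPM with T09 and 9.18 to 16.0 CPM with vehicle (log2 fold change -2.09, edgeR adjusted p 0.0176). Mcam, an adhesion molecule gene of mural cells and endothelium, had 7.04, 5.47 and 5.98 CPM with T09 and 9.34 to 17.3 CPM with vehicle (log2 fold change -1.17, edgeR adjusted p 0.0192). The number called was 3 without T09 replicate 1, 2 without T09 replicate 2 or vehicle replicate 3, and 1 without T09 replicate 3 or vehicle replicate 4. T09 replicate 1 had the lowest Rgs5 and Abcc9 of all libraries, and of the 7 genes 2 others, Notch3 and Pdgfrb, were highest in it. Both were named after their values were seen. Notch3, a Notch receptor gene of mural cells, had 2.55, 0.663 and 1.12 CPM with T09 and 1.05 to 1.78 CPM with vehicle. Pdgfrb, a mural and fibroblast receptor gene, had 9.26 CPM in T09 replicate 1, against 1.77 CPM on average in the other T09 libraries and 2.76 CPM with vehicle.

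**Figure D5:**
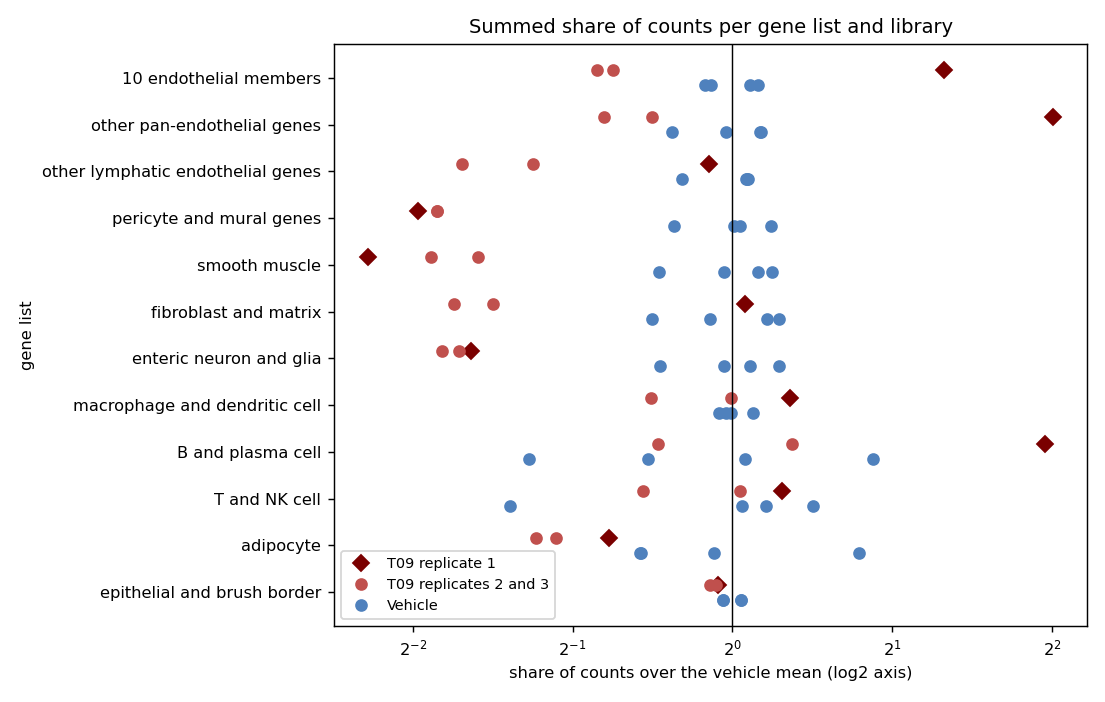
Summed share of counts of each gene list in each library, divided by the mean of the 4 vehicle libraries, on a log2 axis, with T09 points above vehicle points in each row. T09 replicate 1 (diamond) is at 2.50 for the 10 endothelial genes and 4.02 for other pan-endothelial genes, and at 0.206 for smooth muscle.

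Values for markers of other cell types were as follows, and not all of them moved with the endothelial values. Smooth muscle genes were lower in 12 of 12 tested, with 0.0438%, 0.0706% and 0.0575% of counts in T09 replicates 1 to 3 and 0.155% to 0.253% with vehicle, so T09 replicate 1 had the lowest share. Synpo2 and Mylk had log2 fold changes of -2.32 and -1.22 (edgeR adjusted p 7.23e-04 and 0.00206). Of enteric neuron and glia genes 5 of 9 tested were lower, Stmn2 among them (log2 fold change -2.93, edgeR adjusted p 0.00847). Fibroblast and matrix genes were lower in 2 of 11, Dpt and Postn (log2 fold changes -2.19 and -1.72, edgeR adjusted p 0.00289 and 0.0178), in 9 of 11 without T09 replicate 1, and in 1 without vehicle replicate 3 or vehicle replicate 4. Their share was 0.0202% in T09 replicate 1, 0.00677% and 0.00573% in the other T09 libraries and 0.0135% to 0.0234% with vehicle. B and plasma cell genes took 0.0771% in T09 replicate 1, 0.0144% and 0.0258% in the other T09 libraries and 0.00823% to 0.0366% with vehicle. Of the counts over all 7 libraries, T09 replicate 1 alone held 30 of 33 for the B cell gene Pax5 and 27 of 28 for Cr2, a gene of B cells and follicular dendritic cells. Both genes were chosen after their values were seen. Cr2 was in a list of 10 lymphoid follicle and high endothelial venule genes. Of these, 4 were tested, none was called and 1 of the tested was highest in T09 replicate 1. That list took 0.00380% in T09 replicate 1, 0.00218% and 0.00215% in the other T09 libraries and 0.00213% to 0.00317% with vehicle. None of 4 tested B and plasma cell genes was called, and Jchain had 710, 143 and 267 CPM with T09 and 77.6 to 349 CPM with vehicle. Macrophage and dendritic cell genes took 0.0391%, 0.0214% and 0.0302% with T09 against 0.0287% to 0.0333% with vehicle, and C1qa had 55.6, 8.89 and 14.7 CPM with T09 against 12.4 to 27.9 CPM with vehicle. Of 12 tested macrophage and dendritic cell genes none was called, and 9 were highest in T09 replicate 1. The median ratio of their CPM in that library to the mean of the other T09 libraries was 3.74. T and NK cell genes took 0.0118%, 0.00647% and 0.00984% with T09 and 0.00363% to 0.0135% with vehicle, with none of 10 called. The part of sample composition in the endothelial values was not tested.

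The 6 genes most like the endothelial set were sought among genes whose mean CPM was 1 or more, by the root mean square difference of centred log2 CPM over the 7 libraries. They were Rgs19, Ppap2b, Itih5, Calcrl, Myof and Tril, with differences between 0.148 and 0.182. As the closest of 12802 genes, they have small differences by the way they were picked. The 10 genes, which were not picked by likeness, differed from their own mean by 0.291 (Pecam1) to 0.587 (Prox1). Calcrl, the receptor gene for adrenomedullin and CGRP, was in the list of pan-endothelial genes and had 3.31, 0.939 and 0.769 CPM with T09, against 0.891 to 1.61 CPM with vehicle. Ppap2b, a lipid phosphate phosphatase gene, had 42.9, 13.1 and 13.0 CPM with T09 and 20.6 to 25.0 CPM with vehicle. None of the 6 was called with all libraries, and without T09 replicate 1 Ppap2b (log2 fold change -0.83, edgeR adjusted p 0.0144) and Itih5 (log2 fold change -0.96, edgeR adjusted p 0.0330) were called lower. The 6 were picked for likeness over these same 7 libraries, so their pattern follows from the choice. Their values and calls are descriptions only.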

How the data were processed

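Per the file headers, the authors deposited 1 table with a raw count and an FPKM for each Ensembl gene and library. Per the submitters' processing notes, the tools were DESeq 1.18.0, HTSeq 0.6.1, Bowtie2 2.2.3 and TopHat2 2.0.12, with roles not stated. The genome build, the annotation, strand handling and the treatment of shared reads are, in the sources used here, not given. Of the 10 endothelial genes, 8 have exactly the coordinates of GENCODE M21, so positions are given as in the table on GRCm38, and Cdh5 and Lyve1 differ from M21 in extent. Eng overlaps the end of Fpgs on the other strand (689 counts over all libraries), so shared reads leave it slightly uncertain.

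The tests used edgeR 4.0.16 under R 4.3.3: filterByExpr, TMM scaling, glmQLFit and glmQLFTest of T09 against vehicle, adjusted by Benjamini-Hochberg over 14250 genes, and calls at an adjusted p under 0.05. SE is the log2 fold change divided by the square root of F. The replicates are separate mice. CPM used TMM-scaled totals of those counts, and log2 CPM with a prior count of 2. The scripts were tested on simulated counts. Lists were described by counts and medians, with no test over a list. The genes, lists and rules were chosen with earlier results of these data known. Named genes are the 10, up to 6 called genes of each vessel list (or the most abundant, to 3), 2 of each cell type list and the 6 most alike. The text gives those that bear on the endothelial genes. Some results on other cell types are not reported here. Alternatives were DESeq2 1.42.0, its size factors, library size alone, limma-voom (limma 3.58.1) with and without sample weights, no filter, 1 CPM in at least 3 libraries, the replicate number as a block, a test against 1.5-fold and leaving out each library. Leaving out T09 replicate 1 and vehicle replicate 4 together was added after the data were seen. Tables and figures were made in Python 3.11.15.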

Additional observations from a re-analysis of the deposited data

Results flagged for a closer look

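For each set of 4 vehicle values, Dixon's ratio was taken at both ends, as the distance of the end library to its neighbour over the whole span. Of 86 sets 6 passed the 95% critical value, where about 4.30 would by chance (1 in 20), and none of the 10 endothelial genes was among them. The sets are not separate, since a list share contains genes that are also counted alone, as with the pancreatic acinar share, Ctrb1 and Pnlip. The number by chance is therefore only a guide. Vehicle replicate 2 was set apart by the lowest share of other lymphatic endothelial genes, 0.00264% of counts, the next being 0.00349%. Vehicle replicate 3 held the least Plvap, 4.77 CPM, the next lowest vehicle library having 10.5 CPM. Vehicle replicate 1 held the pancreatic acinar counts, 0.0648% of its total against 4.90e-05% in the next vehicle library. Its Ctrb1 stood at 261 CPM (at most 0.216 CPM in the other vehicle libraries) and its Pnlip at 128 CPM (at most 0.0539 CPM). Vehicle replicate 4 held 86.1 CPM of Car3, an adipocyte gene, against at most 10.4 CPM in the other vehicle libraries.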

How the results depend on the processing

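No endothelial gene was called under any of the 17 alternatives, and the smallest adjusted p among them was 0.0660. Over all genes, 614 were called, against 1091 with DESeq2, 1096 with limma-voom and sample weights, 290 with the replicate block, 179 against 1.5-fold, and 251 to 819 when each library was left out (303 and 251 without T09 replicates 2 and 3, 280 and 285 without vehicle replicates 3 and 4). The median log2 fold change of the 10 genes was 0.22, against -0.088 with limma-voom, -0.32 with sample weights, -0.00 with the replicate block (-0.0049), -0.68 without both T09 replicate 1 and vehicle replicate 4, and -0.83 to 0.62 when each library was left out. Directions differed in 32 of 170 values for single genes. They turned with limma-voom for Cdh5 (-0.37), Flt4 (-0.13) and Esam (-0.20), and with sample weights for Pecam1 (-0.023), Cdh5 (-0.56), Vwf (-0.27), Prox1 (0.10), Flt4 (-0.37), Eng (-0.19) and Esam (-0.88). They turned with the replicate block for Cdh5 (-0.15) and Flt4 (-0.26), and without both libraries for Pecam1 (-0.39), Cdh5 (-1.15), Kdr (-0.35), Vwf (-0.49), Flt4 (-0.94), Eng (-0.33) and Esam (-0.86). When each library was left out, the ranges were -0.35 to 1.07 for Pecam1, -1.29 to 0.66 for Cdh5, -0.31 to 1.68 for Kdr, -1.03 to 0.053 for Tek, -0.85 to 0.67 for Vwf, -0.21 to 0.11 for Prox1, -0.81 to 0.43 for Flt4, -0.61 to 0.94 for Eng, -1.19 to 0.70 for Esam and -0.86 to -0.34 for Lyve1. The cause was not tested, beyond the values of T09 replicate 1 given above. Groups without overlap numbered 0, or 0 to 5 when each library was left out, and the summed share in T09 was 0.944 of that in vehicle by mean log2 share, or 0.578 to 1.23. Calls in the other lists numbered between 28 and 43 when each library was left out. Deviations from the group means had correlations of 0.26, 0.03 and -0.03 between same-numbered libraries 1 to 3 of the 2 groups. Between libraries of different number they ran from -0.26 to 0.17, so the replicate 1 value was the highest. The main test did not take the numbers as pairs, and the replicate block above is the alternative that uses them. Counting alone gave the 10 genes coefficients of variation between 9.90% (Lyve1) and 23.9% (Prox1), below the spread among the vehicle libraries for each gene.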
